A study of Arabidopsis thaliana with 6 samples.

Results

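The genes described here are 35 Arabidopsis thaliana genes of DNA replication and S phase, taken by gene identifier from a list of functions: origin licensing, the origin recognition complex, the MCM helicase and its partners, the catalytic subunits of the replicative polymerases, the sliding clamp, chromatin assembly factor 1, the E2F, DP and retinoblastoma regulators, and the cyclins of G1 and S phase. All 35 were among the 33489 genes in the count tables, and the rule that lists them uses identifiers and not measured values. The list was, however, chosen with earlier results of these data known. They were compared between seedlings of the double mutant zdp-1 ape2-2, whose genotype is labelled as a knockout of both ZDP and APE2, and Col-0 seedlings, labelled wild type, with 3 libraries of polyadenylated RNA in each group (replicates A, B and C). All seedlings were grown in petri dishes for 14 days, and both genotypes are whole seedlings, with no agent applied. The labels do not say whether the 3 libraries of a genotype came from separate plates or plants, so the p-values measure the spread between these libraries, which may be technical, and the mutant is 1 allele of each gene in 1 line.

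Both mutated genes act in base excision repair and active DNA demethylation, where the enzymes ZDP and APE2 clean the 3' ends of broken DNA strands. ZDP transcripts (AT3G14890) stood at 17.9 ± 1.43 CPM in zdp-1 ape2-2 and 29.4 ± 1.37 CPM in Col-0 (SD, n = 3 each; CPM is the read count per 1000000 of the scaled library total), for a log2 fold change of -0.71 ± 0.05 (SE, adjusted p = 4.89e-15 in edgeR's quasi-likelihood test). APE2 transcripts (AT4G36050) stood at 5.75 ± 0.12 CPM in zdp-1 ape2-2 and 8.18 ± 0.87 CPM in Col-0 (log2 fold change -0.51 ± 0.08, adjusted p = 2.65e-06 in edgeR's quasi-likelihood test). Both genes were lower in the mutant but still counted, and 33.6% of the APE2 exon bases are shared with another annotated gene. The libraries held 37154781 to 37241739 counts in zdp-1 ape2-2 and 31190605 to 37222185 in Col-0, so that 1 count was worth 0.0262 to 0.0328 CPM. Between libraries of the same genotype the biological coefficient of variation was 1.99%, a spread under which differences of well below 1.2-fold can pass the test.

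Before S phase, the origin recognition complex (ORC) marks replication origins, and CDC6 and CDT1 load onto them the ring of 6 MCM proteins that later unwinds the DNA. At the start of S phase CDC45 activates this helicase, polymerases alpha, epsilon and delta copy the strands around the PCNA clamp, and chromatin assembly factor 1 (CAF-1) places histones behind the fork. In plants as in animals the genes for many of these proteins are bound by E2F transcription factors with their DP partners, and the retinoblastoma protein holds E2F back until D-type cyclins with their kinase phosphorylate it. In a seedling these genes are used mainly in dividing cells of meristems and young leaves, and in cells that copy their genome without division.

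The upstream sequences of the genes are shown because the genes were not chosen by sequence, and E2F motifs can be counted in them as a separate measure. A window from 250 bases before to 50 bases after each annotated start was searched on both strands for the 4 forms of the E2F motif that use plain bases (TTTCCCGC, TTTGGCGC, TTTCGCGC and TTTGCCGC), and for TGGGCC, the site II element found in promoters of many proliferation genes. The 180 bases upstream of 9 starts follow, read 5′ to 3′ on the strand of the gene from the TAIR10.1 assembly, with matches to either motif on either strand in capitals. They are the MCM genes, with MCM7 as a window with no match to set beside the other 5, then ORC3, and ICU2 and FAS1, which hold 2 E2F matches each. The positions are chr1:16970034-16970213 (plus strand) for MCM2, chr5:18773707-18773886 (minus) for MCM3, chr2:7130730-7130909 (minus) for MCM4, chr2:3527501-3527680 (minus) for MCM5, chr5:18010668-18010847 (minus) for MCM6, chr4:900456-900635 (plus) for MCM7, chr5:5474186-5474365 (plus) for ORC3, chr5:26776773-26776952 (plus) for ICU2 and chr1:24324092-24324271 (minus) for FAS1.
MCM2: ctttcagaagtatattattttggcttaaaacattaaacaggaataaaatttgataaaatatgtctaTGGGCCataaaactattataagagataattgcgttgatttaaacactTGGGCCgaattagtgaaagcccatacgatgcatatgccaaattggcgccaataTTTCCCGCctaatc
MCM3: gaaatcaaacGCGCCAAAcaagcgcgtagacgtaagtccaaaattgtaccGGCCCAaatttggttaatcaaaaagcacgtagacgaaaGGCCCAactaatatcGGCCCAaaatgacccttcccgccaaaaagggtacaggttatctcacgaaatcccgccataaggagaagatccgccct
MCM4: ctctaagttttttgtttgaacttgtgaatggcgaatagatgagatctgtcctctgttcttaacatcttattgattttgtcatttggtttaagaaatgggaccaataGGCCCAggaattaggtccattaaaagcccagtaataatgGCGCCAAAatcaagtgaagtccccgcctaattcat
MCM5: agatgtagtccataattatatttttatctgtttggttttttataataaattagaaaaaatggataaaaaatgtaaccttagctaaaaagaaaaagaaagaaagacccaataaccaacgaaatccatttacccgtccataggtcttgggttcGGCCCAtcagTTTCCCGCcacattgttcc
MCM6: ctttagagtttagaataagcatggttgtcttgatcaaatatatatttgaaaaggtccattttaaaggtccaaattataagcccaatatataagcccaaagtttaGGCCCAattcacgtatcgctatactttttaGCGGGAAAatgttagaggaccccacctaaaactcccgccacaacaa
MCM7: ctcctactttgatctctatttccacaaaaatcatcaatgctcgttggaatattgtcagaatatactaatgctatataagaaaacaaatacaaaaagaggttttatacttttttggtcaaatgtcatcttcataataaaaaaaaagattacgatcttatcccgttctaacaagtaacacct
ORC3: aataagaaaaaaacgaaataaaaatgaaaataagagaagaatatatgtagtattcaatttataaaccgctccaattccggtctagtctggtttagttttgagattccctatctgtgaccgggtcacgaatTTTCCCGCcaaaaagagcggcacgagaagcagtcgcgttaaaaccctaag
ICU2: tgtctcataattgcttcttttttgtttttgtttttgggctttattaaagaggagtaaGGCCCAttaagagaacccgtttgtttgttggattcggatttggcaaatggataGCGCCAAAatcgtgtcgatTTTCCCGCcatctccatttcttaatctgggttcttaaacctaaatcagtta
FAS1: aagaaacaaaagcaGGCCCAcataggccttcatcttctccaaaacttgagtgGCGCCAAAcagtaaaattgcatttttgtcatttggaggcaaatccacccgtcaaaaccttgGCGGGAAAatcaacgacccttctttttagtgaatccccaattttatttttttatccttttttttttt

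An E2F motif was found in the windows of 13 of the 35 genes (37.1%), against 396 of the 21182 genes tested (1.87%). The 13 were ORC1A, ORC2, ORC3, ORC4, MCM2 to MCM6, ICU2, FAS1, FAS2 and RBR1. The motif was thus in 5 of the 6 MCM windows. It was in no window of the licensing genes, the clamp or the cyclins. Only exact matches to the searched forms were counted. Near matches, such as GCGGGAAC upstream of CDT1B and PCNA2, were left out. TGGGCC was in 18 windows (51.4%), against 18.0% of all tested genes, and 9 windows (25.7%) held both motifs, against 0.633% of all tested genes. Some of this is shared with replication genes outside the list, of which 11 of 37 (29.7%) had an E2F match and 15 of 37 (40.5%) a TGGGCC match. A match is only a stretch of letters, and the 13 windows without either motif say nothing about whether a factor binds those genes.

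**Figure D1:**
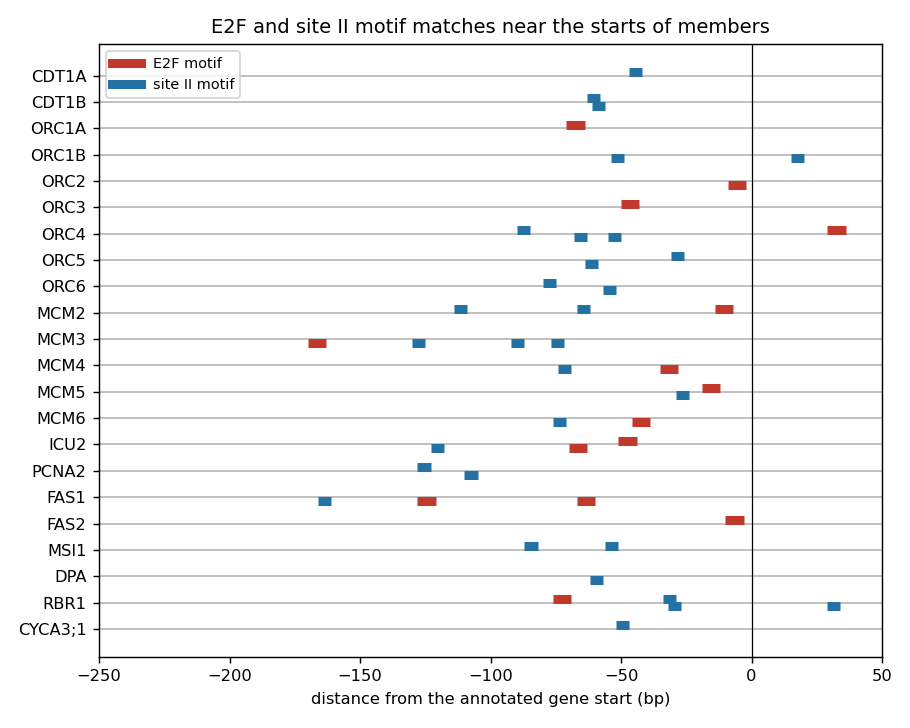
Positions of E2F motif and site II (TGGGCC) matches from 250 bases before to 50 bases after the annotated start (horizontal axis in bases from the start). Each of the 22 genes with a match has 1 row, and the 13 of the 35 genes without either motif are not drawn. E2F matches lie in 13 rows, 5 of them MCM genes.

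Across the list, transcripts of the replication genes were higher in zdp-1 ape2-2 by small amounts. All 35 genes passed the filter on low counts, and 26 of them were higher at an adjusted p below 0.05 in edgeR's quasi-likelihood test, which is 74.3% of the list, whereas 22.2% of all 21182 tested genes were higher in that test. None of the 35 was lower (0 at an unadjusted p below 0.05 in edgeR as well, and 0 with DESeq2), against 21.2% of all tested genes. The median log2 fold change of the 35 genes was 0.245, against 0.00 over all tested genes, with a range of -0.05 (ORC5) to 0.73 (POL2A). In 28 genes every zdp-1 ape2-2 library was above every Col-0 library, a pattern found in 25.5% of all tested genes. With 3 libraries against 3, an exact two-sided permutation test of a single gene cannot go below p = 0.1, the value for each of the 28. Scaling by library totals in place of TMM factors gave 30 higher genes in the list and none lower, with 6964 genes higher and 2717 lower over the whole table, in place of 4699 and 4498.

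The changes were mostly smaller than 1.5-fold: 16 of the 35 genes were at least 1.2-fold higher (14.7% of all tested genes were) and 1, POL2A, was at least 1.5-fold higher (5.88% of all tested genes). POL2A was not extreme among all genes, since 934 tested genes had a larger log2 fold change. When edgeR's test asked for a change beyond 1.2-fold, 7 of the 35 genes passed, against 6.97% of all tested genes. The same 7 passed when a biological coefficient of variation of 0.1 was assumed in place of the estimated one, a setting under which 7.87% of all tested genes were higher. They were POL2A, ORC6, PCNA1, E2FC, ORC3, ORC4 and MCM5, and each of them also stayed higher in every fit that left out 1 library. In TAIR10 coordinates, which the tables share with TAIR10.1 for these genes, they lie on chromosome 1 (POL2A at chr1:2588854-2606892, ORC6 at chr1:9298670-9300800, PCNA1 at chr1:2263037-2264553 and E2FC at chr1:17634697-17637809), chromosome 2 (ORC4 at chr2:85401-88399 and MCM5 at chr2:3522984-3527500) and chromosome 5 (ORC3 at chr5:5474366-5480067). The 35 genes summed to 866 to 879 CPM in the zdp-1 ape2-2 libraries and 727 to 736 CPM in the Col-0 libraries. In whole seedlings, more dividing cells and more RNA of these genes per cell cannot be told apart.

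**Figure D2:**
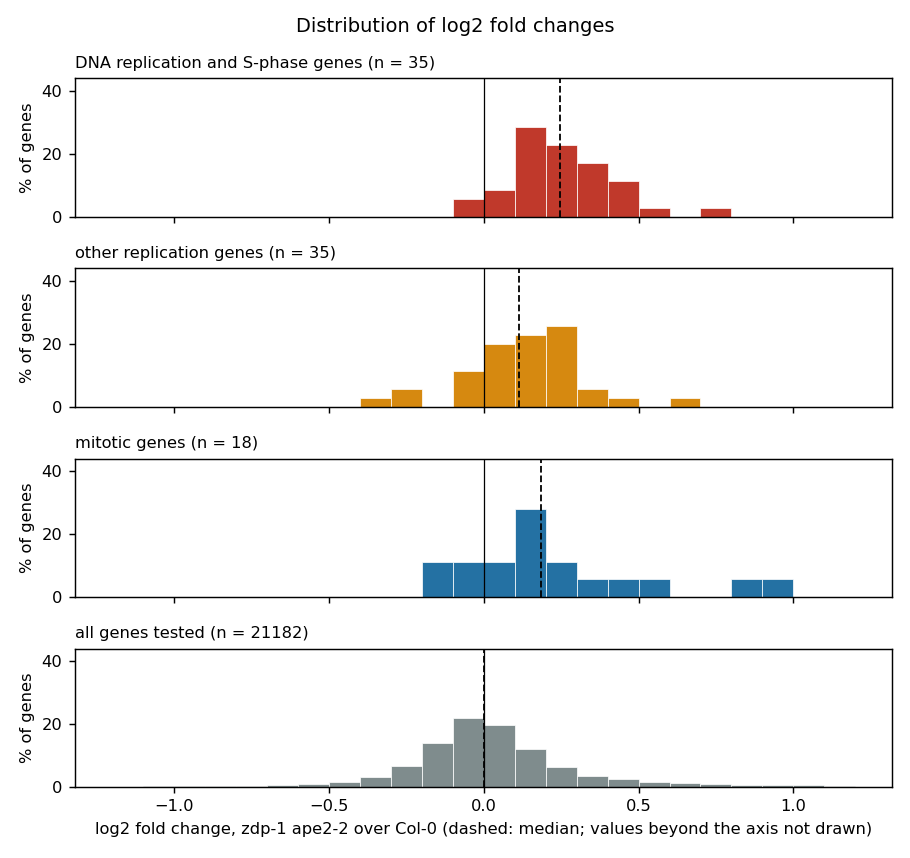
Histograms of the log2 fold change, zdp-1 ape2-2 minus Col-0, for the 35 replication and S-phase genes, other replication genes, mitotic genes and all tested genes. The 35 genes lie between -0.05 and 0.73 with a median of 0.245, and all tested genes have a median of 0.00.

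**Figure D3:**
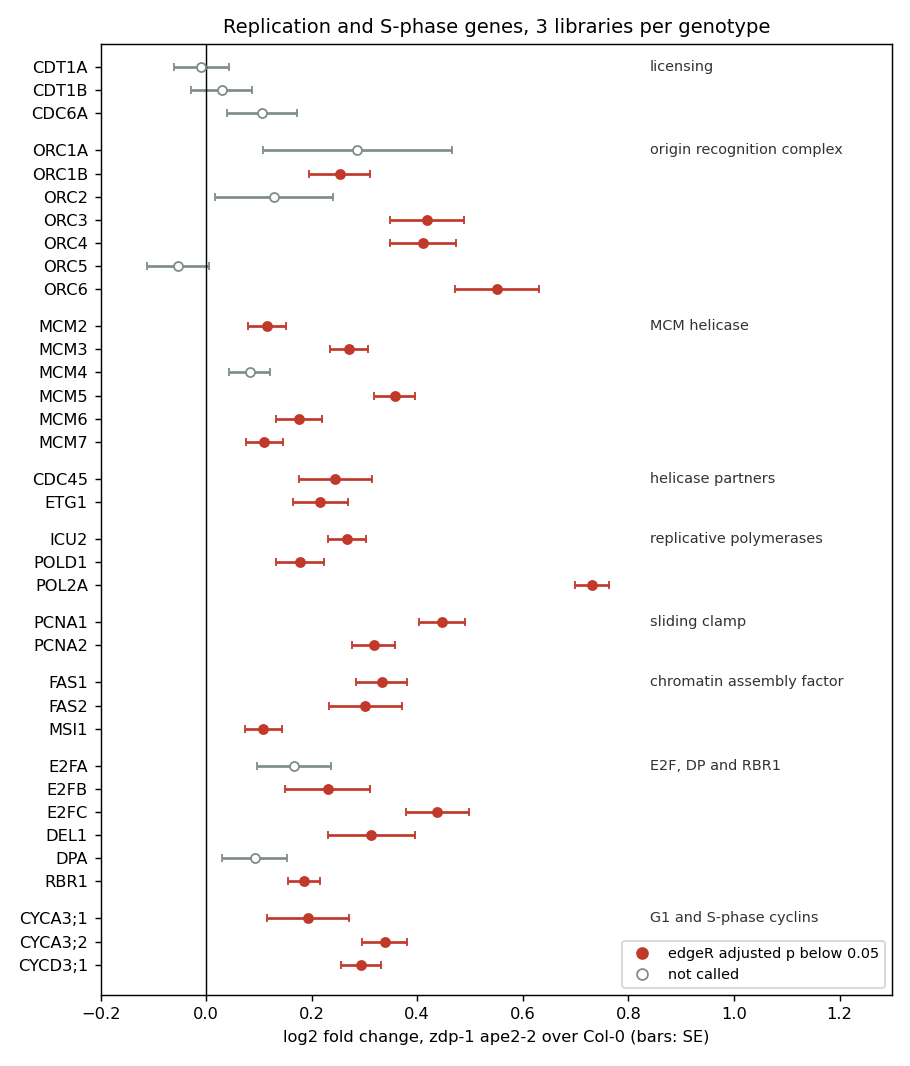
Log2 fold change of each gene, zdp-1 ape2-2 minus Col-0, grouped by role, with bars of 1 SE from edgeR's fit and colours for genes past an adjusted p of 0.05. All 26 genes past the threshold lie to the right of 0, and CDT1A, CDT1B and ORC5 lie closest to 0.

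None of the 3 licensing factors passed the test, as was so for 11985 of all 21182 tested genes. CDT1A (AT2G31270), which helps to load the MCM ring, had 18.3, 17.6 and 19.3 CPM in zdp-1 ape2-2, against 17.6, 18.3 and 19.8 CPM in Col-0. Its paralog CDT1B (AT3G54710) had 14.0, 14.2 and 13.3 CPM in zdp-1 ape2-2, against 13.4, 12.8 and 14.6 CPM in Col-0. The groups overlap for both genes, with log2 fold changes of -0.01 ± 0.05 and 0.03 ± 0.06 (adjusted p = 0.91 and 0.719 in edgeR's quasi-likelihood test), and the sign of both turned in some fits that left out 1 library. CDC6A (AT2G29680), the ATPase that works with CDT1, had 10.1, 9.62 and 9.78 CPM in zdp-1 ape2-2 and 8.81, 9.65 and 8.98 CPM in Col-0, which also overlap (log2 fold change 0.11 ± 0.07, adjusted p = 0.209 in edgeR). That log2 fold change is level with those of MCM7 and MSI1, which were called, and CDC6A was called with library totals as the scale (0.17, adjusted p = 0.0366 in edgeR, in a range of 0.0366 to 1 over the alternatives). The 3 licensing genes summed to 41.4 to 42.4 CPM in zdp-1 ape2-2 and 39.8 to 43.4 CPM in Col-0.

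Of the 7 ORC genes, 4 were higher and 3 did not pass, and 3 of those 4 also passed the test against 1.2-fold. ORC6 (AT1G26840), the smallest subunit of the complex, had 7.97, 7.99 and 7.71 CPM in zdp-1 ape2-2, against 4.93, 5.57 and 5.70 CPM in Col-0. The groups are well separated, at 1.47-fold (log2 fold change 0.55 ± 0.08, adjusted p = 3.51e-07 in edgeR). ORC3 (AT5G16690) had 11.3, 10.9 and 12.8 CPM in zdp-1 ape2-2, against 8.23, 8.53 and 9.48 CPM in Col-0, and ORC4 (AT2G01120) had 14.9, 14.8 and 13.1 CPM in zdp-1 ape2-2, against 10.3, 11.3 and 10.6 CPM in Col-0. Neither gene overlaps between genotypes, and the folds were 1.34 for ORC3 (adjusted p = 5.01e-06 in edgeR) and 1.33 for ORC4 (adjusted p = 7.55e-07 in edgeR). ORC1B (AT4G12620), an ATPase subunit, was the fourth, at 14.7 ± 0.672 CPM in zdp-1 ape2-2 and 12.3 ± 0.489 CPM in Col-0 (log2 fold change 0.25 ± 0.06, adjusted p = 0.00041 in edgeR).

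The other ORC genes gave overlapping groups. ORC5 (AT4G29910) had 12.6, 12.4 and 12.4 CPM in zdp-1 ape2-2 and 12.5, 13.7 and 12.4 CPM in Col-0, the lowest log2 fold change on the list at -0.05 ± 0.06 (adjusted p = 0.5 in edgeR), and it was slightly positive, at 0.01, in the alternative with the highest value. ORC2 (AT2G37560) had 4.27, 4.39 and 3.20 CPM in zdp-1 ape2-2, the third library being lower than every Col-0 library, and 3.46, 3.84 and 3.54 CPM in Col-0 (log2 fold change 0.13 ± 0.11, adjusted p = 0.377 in edgeR). ORC1A (AT4G14700) was the lowest gene of the list, at 1.36, 1.24 and 1.56 CPM in zdp-1 ape2-2 and 0.997, 1.15 and 1.28 CPM in Col-0. Its log2 fold change of 0.29 ± 0.18 (adjusted p = 0.201 in edgeR) is as large as that of several called genes, but its error is the widest on the list. Of its exon bases 36.3% lie under opposite-strand genes, of which AT4G06210 had no counts and AT4G14710 stood at 81.4 CPM in zdp-1 ape2-2 and 74.4 CPM in Col-0. The 7 genes of the complex summed to 65.6 to 67.3 CPM in zdp-1 ape2-2 and 52.4 to 57.0 CPM in Col-0.

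The MCM genes were among the most abundant of the list and moved by less, with 5 of 6 higher and a median log2 fold change of 0.15. MCM5 (AT2G07690) had the largest change, with 49.3, 48.9 and 49.2 CPM in zdp-1 ape2-2, against 40.9, 38.5 and 35.4 CPM in Col-0. The mutant libraries are tightly grouped and the Col-0 libraries spread, yet all 3 Col-0 values lie below them (1.28-fold, log2 fold change 0.36 ± 0.04, adjusted p = 4.72e-10 in edgeR). MCM3 (AT5G46280) had 43.3, 41.5 and 44.2 CPM in zdp-1 ape2-2, against 36.0, 35.3 and 35.6 CPM in Col-0 (log2 fold change 0.27 ± 0.04, adjusted p = 7.71e-08 in edgeR). MCM6 (AT5G44635) was at 28.2 ± 0.235 CPM in zdp-1 ape2-2 and 25.0 ± 1.12 CPM in Col-0 (log2 fold change 0.18 ± 0.04, adjusted p = 0.000919 in edgeR).

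The remaining 3 MCM genes sat close to the threshold although none of them overlaps between genotypes. MCM2 (AT1G44900) had 46.6, 43.4 and 44.5 CPM in zdp-1 ape2-2 and 42.2, 40.0 and 42.0 CPM in Col-0 (log2 fold change 0.12 ± 0.04, adjusted p = 0.009 in edgeR). It lost the call without Col-0 replicate B (adjusted p = 0.0757 in edgeR) and without zdp-1 ape2-2 replicate A (0.0934), in a range of 0.00528 to 0.0934 over the fits without 1 library. MCM7 (AT4G02060) had 45.4, 45.7 and 45.8 CPM in zdp-1 ape2-2 and 40.5, 43.3 and 43.1 CPM in Col-0 (log2 fold change 0.11 ± 0.04, adjusted p = 0.0104 in edgeR), and lost the call without Col-0 replicate A (0.108, the highest in a range that starts at 0.00893). MCM4 (AT2G16440) did not pass, with 33.6, 34.6 and 33.9 CPM in zdp-1 ape2-2 and 31.6, 32.7 and 32.1 CPM in Col-0 (log2 fold change 0.08 ± 0.04, adjusted p = 0.0796 in edgeR). It was called with a correction for exon length (0.10, adjusted p = 0.0266 in edgeR) and with library totals (0.15, adjusted p = 0.00182), in a range of 0.00182 to 1 over the alternatives. The 5 genes with an E2F match in their windows include both the largest and the smallest change of the 6, MCM5 and MCM4.

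**Figure D4:**
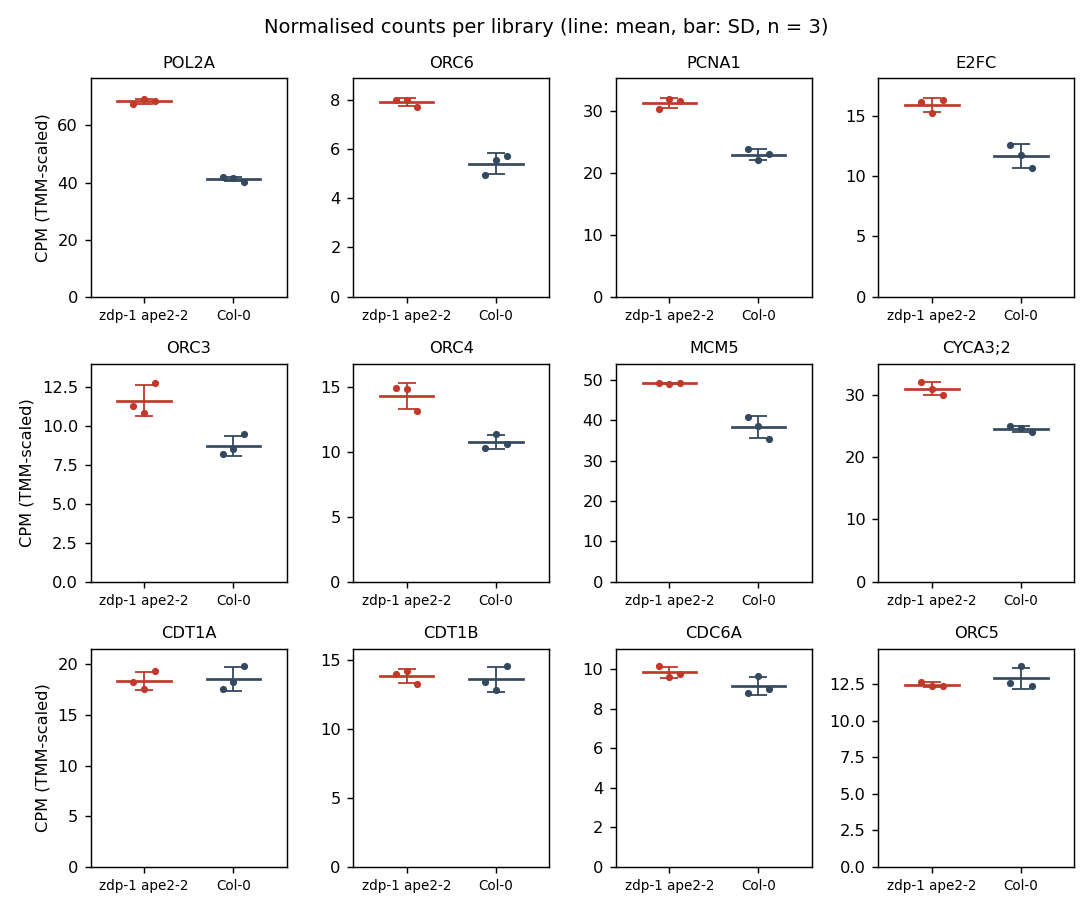
CPM in each library of 12 of the genes, zdp-1 ape2-2 on the left and Col-0 on the right of each panel, with 1 point per library, a line at the mean and bars of 1 SD. The groups are apart in POL2A, ORC6, PCNA1, E2FC, ORC3, ORC4, MCM5 and CYCA3;2, and overlap in CDT1A, CDT1B, CDC6A and ORC5.

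Both helicase partners were higher by a like amount. CDC45 (AT3G25100), which joins MCM in the active helicase, had 9.68, 10.6 and 9.38 CPM in zdp-1 ape2-2, against 8.03, 8.42 and 8.66 CPM in Col-0 (log2 fold change 0.245 ± 0.07, adjusted p = 0.00394 in edgeR). ETG1 (AT2G40550), an MCM-binding replisome factor first described as an E2F target, had 23.3, 24.6 and 24.5 CPM in zdp-1 ape2-2, against 22.2, 21.4 and 18.4 CPM in Col-0 (log2 fold change 0.22 ± 0.05, adjusted p = 0.000731 in edgeR). No Col-0 library reached the lowest mutant library in either gene. CDC45 came near the threshold in some fits. Its adjusted p was 0.0498 in DESeq2's Wald test and reached 0.049 in edgeR over the fits that left out a library.

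The catalytic subunits of all 3 replicative polymerases were higher, and that of polymerase epsilon changed most of the 35 genes. POL2A (AT1G08260), which copies the leading strand, had 67.5, 69.4 and 68.4 CPM in zdp-1 ape2-2, against 41.8, 41.6 and 40.3 CPM in Col-0. The genotypes are separated by many times the spread within either, at 1.66-fold (log2 fold change 0.73 ± 0.03, adjusted p = 3.14e-21 in edgeR), and the log2 fold change stayed between 0.71 and 0.83 over all alternatives. ICU2 (AT5G67100), the catalytic subunit of polymerase alpha, which extends the primers, had 47.1, 46.0 and 49.3 CPM in zdp-1 ape2-2, against 40.8, 39.0 and 38.5 CPM in Col-0 (log2 fold change 0.27 ± 0.04, adjusted p = 8.68e-08 in edgeR). POLD1 (AT5G63960), the catalytic subunit of polymerase delta, which copies the lagging strand, had 27.5, 27.4 and 28.6 CPM in zdp-1 ape2-2 and 26.4, 23.5 and 23.8 CPM in Col-0 (log2 fold change 0.18 ± 0.05, adjusted p = 0.00146 in edgeR).

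For POL2A the annotation around the gene bears on the count. Of its exon bases, 24.4% overlap genes annotated on the opposite strand, and the sources used here do not say whether counting used strand. Of these neighbours AT1G08250 was listed at 0, and AT1G08270 had 1.5 CPM in zdp-1 ape2-2 and 1.1 CPM in Col-0. Those values depend on the same unstated counting rule, and the part of either neighbour in the POL2A count was not tested. In addition, 39.3% of the exon bases of POL2A have a copy of 90% identity or more, and up to 98.75%, in its paralog POL2B (AT2G27120). POL2B had 10, 18 and 5 counts in zdp-1 ape2-2 and 6, 8 and 6 counts in Col-0, too few to test. How reads that fit both copies were treated is not given in the sources used here.

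Both genes of the sliding clamp were higher. PCNA1 (AT1G07370) had 30.3, 31.9 and 31.6 CPM in zdp-1 ape2-2, against 23.8, 22.0 and 23.0 CPM in Col-0. This is 1.36-fold, with no overlap (log2 fold change 0.45 ± 0.04, adjusted p = 3.44e-11 in edgeR). PCNA2 (AT2G29570) had 31.9, 32.4 and 32.5 CPM in zdp-1 ape2-2, against 25.5, 25.6 and 26.6 CPM in Col-0 (log2 fold change 0.32 ± 0.04, adjusted p = 2.35e-08 in edgeR). The paralogs share stretches of 90.07% identity over 13.4% and 12.8% of their exon bases, and 23.6% of the PCNA2 exon bases overlap AT2G29560 on the opposite strand, which had 39.5 CPM in zdp-1 ape2-2 and 40.2 CPM in Col-0.

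The 3 subunits of CAF-1, the chaperone that places histones H3 and H4 on new DNA, were all higher. FAS1 (AT1G65470), the large subunit, had 25.5, 23.2 and 26.0 CPM in zdp-1 ape2-2, against 20.08, 19.16 and 20.13 CPM in Col-0 (log2 fold change 0.33 ± 0.05, adjusted p = 3.56e-07 in edgeR). FAS2 (AT5G64630) had 10.5, 9.46 and 11.0 CPM in zdp-1 ape2-2, against 8.45, 8.58 and 8.10 CPM in Col-0 (log2 fold change 0.30 ± 0.07, adjusted p = 0.000475 in edgeR). MSI1 (AT5G58230), a histone-binding protein that CAF-1 shares with other chromatin complexes, had 42.1, 41.6 and 42.2 CPM in zdp-1 ape2-2 and 39.1, 38.2 and 39.6 CPM in Col-0. Its groups do not overlap, but the log2 fold change was only 0.11 ± 0.04 (adjusted p = 0.0115 in edgeR) and the call was lost without Col-0 replicate B (0.0613, in a range of 0.0143 to 0.0613 over the fits without 1 library).

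Among the E2F, DP and retinoblastoma genes, 4 of 6 were higher, and E2FC had the largest log2 fold change. E2FC (AT1G47870), described mainly as a repressor of cell division, had 16.1, 15.2 and 16.3 CPM in zdp-1 ape2-2, against 12.6, 11.8 and 10.6 CPM in Col-0. No library overlaps, at 1.35-fold (log2 fold change 0.44 ± 0.06, adjusted p = 9.11e-08 in edgeR). DEL1 (AT3G48160), an atypical E2F that binds DNA without a DP partner and holds back endoreduplication, had 7.16, 7.57 and 7.16 CPM in zdp-1 ape2-2, against 6.09, 5.21 and 6.39 CPM in Col-0 (log2 fold change 0.31 ± 0.08, adjusted p = 0.00197 in edgeR). AT3G48170, on the opposite strand, covers 16.2% of the DEL1 exon bases and was also higher, at 114 CPM in zdp-1 ape2-2 and 104 CPM in Col-0 (log2 fold change 0.14, adjusted p = 3.69e-05 in edgeR), and its part in the DEL1 counts was not tested. RBR1 (AT3G12280), the retinoblastoma protein that binds E2Fs, was the most abundant regulator, with 71.7, 70.0 and 73.0 CPM in zdp-1 ape2-2, against 62.4, 61.6 and 65.0 CPM in Col-0 (log2 fold change 0.18 ± 0.03, adjusted p = 4.15e-06 in edgeR).

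Of the activating E2Fs and their listed partner DPA, 1 of 3 passed the test. E2FB (AT5G22220) had 7.08, 7.28 and 6.71 CPM in zdp-1 ape2-2 and 5.98, 5.62 and 6.43 CPM in Col-0 (log2 fold change 0.23 ± 0.08, adjusted p = 0.0187 in edgeR). Its call was lost without Col-0 replicate B (0.106) and without zdp-1 ape2-2 replicate B (0.0753), in a range of 0.0119 to 0.106 over the fits without 1 library. E2FA (AT2G36010) had 11.4, 9.52 and 9.86 CPM in zdp-1 ape2-2 and 8.89, 9.35 and 9.15 CPM in Col-0, which do not overlap, but it missed the threshold (log2 fold change 0.17 ± 0.07, adjusted p = 0.0523 in edgeR). Without zdp-1 ape2-2 replicate B or C the adjusted p for E2FA was 0.0215 or 0.0478, in a range of 0.0215 to 0.395. E2FA was also called with library totals (adjusted p = 0.00709 in edgeR) and with a minimum mean of 1 CPM (0.0471), in a range of 0.00709 to 1 over the alternatives. DPA (AT5G02470), a dimer partner, had 12.2, 11.9 and 11.4 CPM in zdp-1 ape2-2 and 11.5, 11.5 and 10.3 CPM in Col-0, which overlap. Its log2 fold change was 0.09 ± 0.06 (adjusted p = 0.245 in edgeR, and 0.0401 with library totals, in a range of 0.0401 to 1 over the alternatives). Its paralog DPB, outside the list, is described below.

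All 3 cyclins of the list were higher, CYCA3;1 only by a margin that depended on single libraries. CYCA3;2 (AT1G47210), an A-type cyclin of S phase, had 32.0, 31.0 and 30.0 CPM in zdp-1 ape2-2, against 24.9, 24.6 and 23.9 CPM in Col-0. The genotypes are far apart relative to their spread (1.26-fold, log2 fold change 0.34 ± 0.04, adjusted p = 1.38e-08 in edgeR). CYCD3;1 (AT4G34160), the D-type cyclin that acts with its kinase on RBR1 at the entry into S phase, had 38.2, 40.3 and 40.1 CPM in zdp-1 ape2-2, against 32.5, 31.8 and 32.5 CPM in Col-0 (log2 fold change 0.29 ± 0.04, adjusted p = 2.75e-08 in edgeR). CYCA3;1 (AT5G43080) had 7.32, 7.52 and 7.29 CPM in zdp-1 ape2-2 and 6.09, 6.72 and 6.56 CPM in Col-0 (log2 fold change 0.19 ± 0.08, adjusted p = 0.0397 in edgeR). Its call was lost in 5 of the 6 fits without 1 library, where the adjusted p ranged over 0.0386 to 0.168. It held only without Col-0 replicate B, and the other 5 values were 0.168 without Col-0 replicate A, 0.0587 without Col-0 replicate C, and 0.0682, 0.106 and 0.0652 without zdp-1 ape2-2 replicates A, B and C.

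Levels can be compared between genes only per length, as CPM divided by the exon length in kilobases (RPKM). On that scale the clamp and MSI1 were the most abundant, with PCNA1 at 27.6 ± 0.76 RPKM in zdp-1 ape2-2 and 20.3 ± 0.82 RPKM in Col-0. PCNA2 stood at 27.3 ± 0.27 RPKM in zdp-1 ape2-2 and 21.9 ± 0.51 RPKM in Col-0, and MSI1 at 25.8 ± 0.19 RPKM in zdp-1 ape2-2 and 24.0 ± 0.42 RPKM in Col-0 (SD, n = 3 each). Within CAF-1 the level of MSI1 was several times that of FAS1, at 7.86 ± 0.48 RPKM in zdp-1 ape2-2 and 6.24 ± 0.17 RPKM in Col-0, and of FAS2, at 5.40 ± 0.42 RPKM in zdp-1 ape2-2 and 4.37 ± 0.13 RPKM in Col-0.

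The order of the MCM genes per length differed between genotypes at the top. MCM5 stood at 18.3 ± 0.08 RPKM in zdp-1 ape2-2 and 14.2 ± 1.02 RPKM in Col-0, and MCM7 at 17.2 ± 0.06 RPKM in zdp-1 ape2-2 and 16.0 ± 0.61 RPKM in Col-0, so MCM5 was above MCM7 in the mutant and below it in Col-0. MCM6 was the lowest in both genotypes, at 9.67 ± 0.08 RPKM in zdp-1 ape2-2 and 8.58 ± 0.38 RPKM in Col-0. The ORC genes were lower than every MCM gene, between ORC4 at 8.45 ± 0.59 RPKM in zdp-1 ape2-2 and 6.35 ± 0.32 RPKM in Col-0 and ORC1A at 0.548 ± 0.064 RPKM in zdp-1 ape2-2 and 0.452 ± 0.056 RPKM in Col-0. ORC3, at 4.49 ± 0.38 RPKM in zdp-1 ape2-2 and 3.37 ± 0.25 RPKM in Col-0, was close to ORC5 in the mutant (4.75 ± 0.06 RPKM) and below it in Col-0 (4.91 ± 0.28 RPKM).

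The 3 polymerase genes came to nearly the same level in the mutant, with POL2A at 7.77 ± 0.11 RPKM, POLD1 at 7.75 ± 0.17 RPKM and ICU2 at 8.21 ± 0.29 RPKM. In Col-0, POL2A was lower than both of the others, at 4.68 ± 0.09 RPKM, against 6.85 ± 0.45 RPKM for POLD1 and 6.82 ± 0.22 RPKM for ICU2. The levels per length of POL2A, ICU2, PCNA2, DEL1 and ORC1A are uncertain, since 24.4%, 15.0%, 23.6%, 16.2% and 36.3% of their exon bases lie under genes of the opposite strand.

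**Figure D5:**
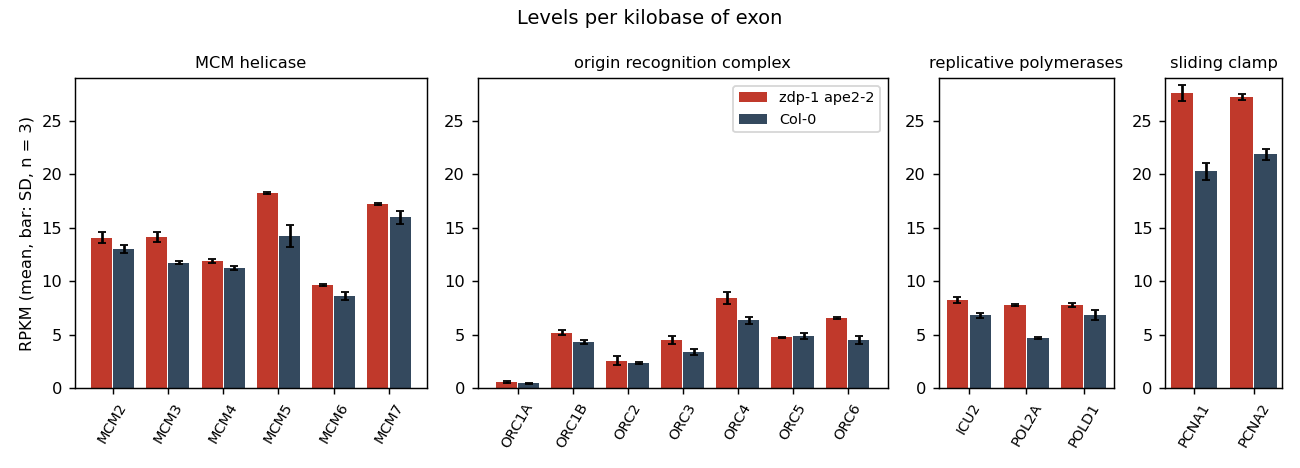
Level per length (RPKM, linear axis from 0) of the MCM, ORC, polymerase and clamp genes, with zdp-1 ape2-2 bars left of Col-0 bars and error bars of 1 SD (n = 3 each). MCM5 reaches 18.3 RPKM in zdp-1 ape2-2 and 14.2 RPKM in Col-0, and POL2A 7.77 RPKM in zdp-1 ape2-2 and 4.68 RPKM in Col-0.

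Paralogs were compared by the log2 ratio of their levels per length within each library. PCNA1 over PCNA2 was 0.02 ± 0.03 in zdp-1 ape2-2 and -0.11 ± 0.07 in Col-0, with no overlap between genotypes (difference 0.13, exact two-sided permutation p = 0.1, 0.25 adjusted over the 5 pairs). CYCA3;1 over CYCA3;2 was -1.88 ± 0.05 in zdp-1 ape2-2 and -1.74 ± 0.09 in Col-0 (difference -0.15, exact permutation p = 0.1, adjusted 0.25). Both are at the smallest value that an exact permutation test of 3 libraries against 3 allows (p = 0.1). The other pairs overlapped: CDT1A over CDT1B was 0.16 ± 0.12 in zdp-1 ape2-2 and 0.20 ± 0.06 in Col-0, E2FA over E2FB was 0.47 ± 0.15 in zdp-1 ape2-2 and 0.53 ± 0.12 in Col-0, and ORC1A over ORC1B was -3.24 ± 0.11 in zdp-1 ape2-2 and -3.27 ± 0.18 in Col-0 (exact permutation p = 0.7, 0.5 and 0.9). ORC1B and CYCA3;2 were thus the prevailing copy of their pairs in both genotypes.

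The changes within the list can also be set against the E2F matches. Of the 13 genes with a match 10 were higher, the median log2 change being 0.27 in a range of 0.08 to 0.42, and of the 22 without one 16 were higher, with a median of 0.22 and a range of -0.05 to 0.73. The 4 largest changes, POL2A, ORC6, PCNA1 and E2FC, were all in genes without a match in the window. Exons of other genes reach into the 180 bases upstream of POL2A, ORC6 and PCNA1, but not of E2FC. The same holds for ORC1B, ETG1, PCNA2, MSI1 and CYCD3;1 without a match, and for ORC4 and RBR1 with a match. Over all tested genes, 33.8% of the 396 with a match were higher and 15.9% lower (median log2 fold change 0.07), against 22.0% higher and 21.3% lower of the 20786 without one (median 0.00).

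Other genes of the replication machinery moved less evenly than the 35. Of 37 listed, 35 were tested, of which 17 were higher, 3 lower and 15 not past the threshold. Over all tested genes, 22.2% were higher and 21.2% lower. Their median log2 fold change was 0.11, in a range of -0.36 to 0.64. POLD4 (AT1G09815), a small subunit of polymerase delta, had the largest rise, at 29.3 ± 0.68 CPM in zdp-1 ape2-2 and 18.6 ± 1.47 CPM in Col-0 (log2 fold change 0.64 ± 0.05, adjusted p = 2.77e-14 in edgeR). POLA3 (AT5G41880), a primase subunit of the polymerase alpha complex, was at 17.9 ± 0.68 CPM in zdp-1 ape2-2 and 13.3 ± 0.67 CPM in Col-0 (0.42 ± 0.05, adjusted p = 2.51e-08 in edgeR). TIM (AT5G52910), a fork protection factor, was at 16.0 ± 0.51 CPM in zdp-1 ape2-2 and 12.4 ± 0.56 CPM in Col-0 (0.36 ± 0.06, adjusted p = 1.15e-06 in edgeR). RFC1 (AT5G22010), the large subunit of the clamp loader, was at 49.9 ± 1.15 CPM in zdp-1 ape2-2 and 44.2 ± 0.44 CPM in Col-0 (0.18 ± 0.03, adjusted p = 4.11e-05 in edgeR).

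Genes that were lower in the mutant were found here and not among the 35. Both lists were chosen with earlier results of these data known, so the contrast between them may depend on that choice and was not tested. DNA2 (AT1G08840), a nuclease and helicase known in yeast for trimming Okazaki fragments, was at 10.3 ± 0.19 CPM in zdp-1 ape2-2 and 13.3 ± 0.64 CPM in Col-0 (log2 fold change -0.36 ± 0.06, adjusted p = 4.1e-06 in edgeR). CYCD3;2 (AT5G67260), a paralog of CYCD3;1, was at 48.2 ± 2.1 CPM in zdp-1 ape2-2 and 56.3 ± 0.72 CPM in Col-0 (log2 fold change -0.22 ± 0.03, adjusted p = 9.29e-07 in edgeR). CYCD3;3 (AT3G50070) was higher instead (0.19 ± 0.05, adjusted p = 0.00106 in edgeR), so the CYCD3 genes did not move alike. The atypical E2Fs likewise differed in sign, with DEL2 (AT5G14960) at -0.25 ± 0.09 (adjusted p = 0.0258 in edgeR) and DEL3 (AT3G01330) at 0.29 ± 0.07 (adjusted p = 0.00111 in edgeR), beside DEL1 at 0.31 ± 0.08. CDC6B (AT1G07270), like its paralog CDC6A, did not pass (0.21 ± 0.13, adjusted p = 0.212 in edgeR). DPB (AT5G03415), a paralog of DPA, did not pass (-0.07 ± 0.05, adjusted p = 0.291 in edgeR), though every mutant library lay below every Col-0 library. CYCA3;4 (AT1G47230) did not pass (0.11 ± 0.05, adjusted p = 0.109 in edgeR). CYCA3;3 (AT1G47220), with 0, 0 and 1 counts in zdp-1 ape2-2 and none in Col-0, could not be tested.

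Of 18 mitotic genes, which act after replication, 11 passed the test as higher, 2 as lower and 5 did not pass. All tested genes gave 22.2% higher and 21.2% lower. The median of their log2 fold changes was 0.19, in a range of -0.15 to 0.98. CYCB1;1 (AT4G37490), a B-type cyclin that is also induced by DNA damage, stood at 24.3 ± 0.819 CPM in zdp-1 ape2-2 and 13.6 ± 0.593 CPM in Col-0, a log2 fold change of 0.84 ± 0.05 (adjusted p = 5.31e-17 in edgeR), above any of the 35 replication genes. CYCA2;1 (AT5G25380) stood at 2.77 ± 0.229 CPM in zdp-1 ape2-2 and 1.42 ± 0.235 CPM in Col-0 (0.98 ± 0.15, adjusted p = 5.64e-07 in edgeR). These were the 2 largest rises of the 18 genes. Among the 2 lower genes, CYCB1;2 (AT5G06150) had a log2 fold change of -0.15 ± 0.04 with overlapping groups (adjusted p = 0.00385 in edgeR). The other was KNOLLE (AT1G08560), at -0.10 ± 0.03 (adjusted p = 0.00795 in edgeR).

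Marker genes of organs and cell types also moved with the genotype, and their part in the values above was not tested. The counts below stand beside 22.2% higher and 21.2% lower over all tested genes. All 6 leaf mesophyll markers were lower, at a summed 26624 to 26716 CPM in zdp-1 ape2-2 and 34260 to 35292 CPM in Col-0. All 4 floral organ markers were higher, at a summed 24.4 to 24.9 CPM in zdp-1 ape2-2 and 9.80 to 10.3 CPM in Col-0. Stomatal lineage markers were lower in 4 of 5, at a summed 42.3 to 43.1 CPM in zdp-1 ape2-2 and 59.3 to 63.1 CPM in Col-0. Of the 8 shoot meristem markers 6 were tested, 3 higher and 1 lower, at 87.9 to 91.5 CPM in zdp-1 ape2-2 and 94.2 to 98.0 CPM in Col-0. Most of that sum was the receptor kinase CLV1 (AT1G75820), the lower one, at 66.8 ± 1.2 CPM in zdp-1 ape2-2 and 79.6 ± 1.6 CPM in Col-0 (log2 fold change -0.25 ± 0.03, adjusted p = 2.47e-09 in edgeR). The 3 higher ones were STM (AT1G62360), which keeps meristem cells undifferentiated, at 6.67 CPM in zdp-1 ape2-2 and 3.28 CPM in Col-0 (log2 fold change 1.02, adjusted p = 3.92e-12 in edgeR), KNAT1 at 13.1 CPM in zdp-1 ape2-2 and 11.2 CPM in Col-0, and CUC1 at 1.28 CPM in zdp-1 ape2-2 and 0.525 CPM in Col-0. The defining markers WUS and CLV3 were at or near 0, with 3, 3 and 3 counts of WUS in zdp-1 ape2-2 and 0, 1 and 0 in Col-0, and with no CLV3 count in zdp-1 ape2-2 and 1, 0 and 0 in Col-0. Root tip markers summed to 47.0 to 51.4 CPM in zdp-1 ape2-2 and 47.4 to 49.8 CPM in Col-0, with 1 of 5 higher and none lower. The higher one, WOX5 (AT3G11260), had overlapping groups (adjusted p = 0.0459 in edgeR). Differentiated root markers summed to 64.7 to 69.8 CPM in zdp-1 ape2-2 and 76.5 to 81.2 CPM in Col-0, with 3 of 5 lower and none higher. No marker was at 0 in every library.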

How the data were processed

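Polyadenylated RNA from whole seedlings was sequenced in 3 libraries of each genotype. The authors deposited 1 table of raw counts per gene and library, with exon lengths. STAR and the TAIR10 genome are named per the submitters' processing notes, while the counting tool, strand setting, annotation release and treatment of reads that fit several places are not given in the sources used here. Totals were 31190605 to 37241739 counts per library. All 33489 gene identifiers matched the RefSeq annotation of TAIR10.1, 33297 with the same coordinates (34 of the 35 genes described, all but ORC1A).

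Counts were fitted with edgeR 4.0.16 in R 4.3.3 (TMM factors, low-count filter by group, quasi-likelihood F test, Benjamini-Hochberg adjustment over 21182 genes, called at an adjusted p below 0.05), after the code was tested on simulated data with 200 changed genes. DESeq2 1.42.0 was an alternative. CPM are counts per 1000000 of the TMM-scaled library total, and SE is the log2 fold change over the square root of F. Motifs were searched with Python 3.11.15 and copies with blastn 2.17.0, at 90% identity or more over at least 50 bases. The 35 genes and the other lists were chosen with earlier results of these data known. Every listed gene was accounted for. Outside the 35, up to 6 called genes with the smallest p and up to 2 genes per other list were named. Paralogs of POL2A, CDC6A, DPA, DEL1 and the listed cyclins were also named. The exceptions are the shoot meristem markers and mitotic genes named beyond 2, which were chosen after their values were seen. The replicate letters were checked for pairing and left out of the main model.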

Additional observations from a re-analysis of the deposited data

How the results depend on the processing

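Of the 26 genes called higher, 7 were past the threshold under all 15 alternatives and 19 lost the call under at least 1, and none of the 26 had a negative log2 fold change in any. Scaling by library totals lowered the number of genes lower over the table to 2717 and raised the median log2 fold change of the 35 genes to 0.31. An assumed biological coefficient of variation of 0.1 left 7 of the 35 genes higher, with 1668 genes higher and 760 lower over the table, and a test against 1.2-fold left 7, with 1476 higher and 665 lower. Without 1 library at a time the median was 0.216 to 0.251, and 23 to 26 of the genes were higher. DESeq2's test called 21 higher and the fit without a filter 26, with 27 at a minimum mean of 1 CPM and 27 with a correction for exon length. Searching TTTCCCGC alone found 10 of the 35 windows and TTTGGCGC alone found 4, in place of 13.

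With the replicate letter as a replicate block, 27 of the 35 genes were higher, with 4830 genes higher over the table, and the gene added was E2FA (adjusted p = 0.0386 in edgeR, in a range of 0.00709 to 1 over the alternatives). Deviations of libraries with the same letter correlated by -0.0228 for A, 0.0682 for B and -0.005 for C over 12760 genes. These values lay within the range for unlike letters, from -0.0839 (mutant C with wild-type B) to 0.0871 (mutant C with wild-type A). They gave no sign of pairing by letter but cannot exclude it. The biological coefficient of variation between libraries of the same genotype was only 1.99%, which leaves little shared deviation to detect. Depth limited ORC1A, at about 1 CPM, where a log2 fold change of 0.29 did not pass, and genes with a few counts, such as WUS, CLV3 and POL2B, could not be tested.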
